A study of Mus musculus with 12 samples.

Results

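Transcripts of 9 genes that carry, tune and end interferon signals inside the cell were followed through 12 RNA sequencing libraries. All came from HM1, a line of mouse ovarian cancer cells. The genes are the signal transducer Stat2, the interferon regulatory factors Irf1, Irf3, Irf7, Irf8 and Irf9, and the feedback inhibitors Socs1, Socs3 and Usp18. In the tables they are Stat2 (ENSMUSG00000040033), Irf1 (ENSMUSG00000018899), Irf3 (ENSMUSG00000003184), Irf7 (ENSMUSG00000025498), Irf8 (ENSMUSG00000041515), Irf9 (ENSMUSG00000002325), Socs1 (ENSMUSG00000038037), Socs3 (ENSMUSG00000053113) and Usp18 (ENSMUSG00000030107). They were picked by name, with earlier results of these data known, and each name matched 1 row in every table. They are 9 of the 55878 genes listed for tumors and the 56061 listed for cultures. The libraries form 4 groups of 3: tumors of HM1 with a short hairpin RNA against ST3GAL3, a sialyltransferase, called knockdown tumors here; tumors of HM1 with a control hairpin; knockdown HM1 cells in culture; and control HM1 cells in culture. Every group carries a hairpin, and the labels give the control lines the genotype wild type. The labels do not give the host strain or age, the tumor site, the harvest time, or whether a line is a clone. Nor do they tell whether samples of 1 group are different cultures or different animals. The p-values therefore rest on a spread between samples that could be technical.

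Interferons bind receptors at the cell surface, and the JAK kinases on those receptors phosphorylate STAT proteins. For type I interferon, STAT2 joins another STAT and the DNA-binding protein IRF9, and the complex switches on genes that carry the interferon-stimulated response element (ISRE). Interferon gamma acts through STAT dimers at gamma-activated sequences (GAS) and induces IRF1, itself a transcription factor. IRF3 is made in most cells before any infection and is switched on by phosphorylation downstream of nucleic acid sensors, whereas IRF7 is itself induced by interferon and amplifies interferon production. IRF8 is a lineage factor of macrophages, dendritic cells and B cells. SOCS1 and SOCS3 are inducible inhibitors of JAK signaling, SOCS3 mainly of receptors that use gp130, and USP18 removes the ubiquitin-like protein ISG15 from its targets and blocks signaling at the type I interferon receptor.

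St3gal3, the target of the hairpin, was at 7.28, 5.87 and 5.76 TPM in knockdown tumors, against 14.00, 15.39 and 15.36 TPM in control tumors. In culture it was at 1.52, 1.25 and 1.83 TPM in knockdown cells, against 9.59, 12.52 and 12.93 TPM in control cells. It fell in both tissues (limma adjusted p = 0.00954 in tumors and 0.00689 in culture), by 1.13 and 2.32 on the log2 scale. TPM, the unit of the tables, is a length-scaled share of a library, so levels of different genes can be set side by side, while the depth of the libraries is unknown. Between 14046 and 14534 genes reached 1 TPM in a tumor library and between 12629 and 13145 in a culture library. The keratin genes Krt8, Krt18 and Krt19 averaged 2110, 1693 and 1108 TPM in control cultures, while the epithelial and Müllerian markers Epcam, Cdh1 and Wt1 averaged 0.177, 0.0233 and 0.00667 TPM there. Knockdown tumors 1 and 3 stood apart from the other tumors in skeletal muscle transcripts. Acta1, the actin of skeletal muscle, was at 33.03, 3.5 and 23.73 TPM in knockdown tumors, against 0.42, 3.73 and 0.11 TPM in control tumors.

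Promoters are shown for members whose window of 250 bases before the transcription start holds a match to an interferon motif and overlaps no annotated exon. They come from the RefSeq promoter table of build GRCm38.p6, which differs from the build named for the expression tables, and are printed 5′ to 3′ along the strand of the gene. The table holds 11 windows for 8 of the 9 members. The motifs searched were GAAA followed by any 2 bases and a second GAAA, the core of the ISRE, on both strands, and TTCNNNGAA, the GAS, which reads the same on both strands; capitals mark the matches. Socs1 lies on the minus strand and its window is chr16:10785537-10785786. Stat2 lies on the plus strand, with the window chr10:128270248-128270497. Irf1 lies on the plus strand, with the window chr11:53769764-53770013, and Irf8 on the plus strand, with the window chr8:120736108-120736357, which lies inside the non-coding gene model Gm20388 but in none of its exons.
Socs1: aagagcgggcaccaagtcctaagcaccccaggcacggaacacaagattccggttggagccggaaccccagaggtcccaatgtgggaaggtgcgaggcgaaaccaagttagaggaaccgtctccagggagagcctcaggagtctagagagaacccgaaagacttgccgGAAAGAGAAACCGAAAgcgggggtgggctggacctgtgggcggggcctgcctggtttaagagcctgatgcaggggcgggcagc
Stat2: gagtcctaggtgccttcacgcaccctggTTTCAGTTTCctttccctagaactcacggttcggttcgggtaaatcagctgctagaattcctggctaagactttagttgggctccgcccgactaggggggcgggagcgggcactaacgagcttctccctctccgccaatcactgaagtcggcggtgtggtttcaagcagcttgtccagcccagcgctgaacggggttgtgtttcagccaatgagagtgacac
Irf1: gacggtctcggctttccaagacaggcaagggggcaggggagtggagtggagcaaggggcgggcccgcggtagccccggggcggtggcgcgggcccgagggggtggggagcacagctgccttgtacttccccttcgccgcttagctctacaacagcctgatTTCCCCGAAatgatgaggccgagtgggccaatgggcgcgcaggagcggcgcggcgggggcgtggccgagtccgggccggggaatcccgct
Irf8: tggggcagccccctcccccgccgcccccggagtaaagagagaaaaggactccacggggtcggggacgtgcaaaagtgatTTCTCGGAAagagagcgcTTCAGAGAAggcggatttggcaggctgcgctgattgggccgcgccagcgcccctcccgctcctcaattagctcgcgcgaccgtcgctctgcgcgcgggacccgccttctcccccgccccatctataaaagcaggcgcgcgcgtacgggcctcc
The Socs1 window held 2 overlapping ISRE matches, GAAAGAGAAA from 83 to 74 bases and GAAACCGAAA from 77 to 68 bases before the start. The Stat2 window held 1 ISRE match on the opposite strand, read here as TTTCAGTTTC, from 222 to 213 bases before the start. Bases just after this start were not found in the searched part of an annotated Stat2 transcript, so these distances rest on the RefSeq start alone. They were found for Socs1, Irf1 and Irf8. Since the search ran well past the 5′ end of the transcripts, a find does not place the start. Irf1 held the GAS match TTCCCCGAA from 90 to 82 bases, and Irf8 held TTCTCGGAA from 171 to 163 and TTCAGAGAA from 153 to 145 bases before its start. Of all 32851 windows in the table, 2.98% held an ISRE match and 7.02% a GAS match. The windows of Irf3, Irf7 and Irf9 held neither, nor did the other windows that the table holds for Irf1 and Irf8. Those of Irf7 and Irf9 overlap exons of the same genes. The Socs3 window, which also overlaps an exon of Socs3, held 1 GAS match. As for Stat2, bases just after its start were not found in an annotated transcript of the gene. A match describes these letters and is not a measured binding site.

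Of the 9 genes, 4 rose in knockdown tumors and 0 fell: Irf7, Irf9, Usp18 and Socs1. Among all 14915 genes tested in tumors, 1.07% rose and 0.436% fell by the same rule, which is a limma adjusted p under 0.05 over all of them. Irf7 was 3.16-fold higher by its means, at 106 ± 12.2 TPM in knockdown tumors and 33.5 ± 5.39 TPM in control tumors (SD, n = 3 each). Irf1 and Stat2 were 2.46-fold and 2.05-fold higher by their means and missed the threshold. An unadjusted p under 0.05 was found for 6 of the 9 genes and for 18.7% of all genes. In the same 6 genes every knockdown tumor lay above every control tumor, as did 9.81% of all genes tested. The median log2 change of the 9 genes was 0.78, beside -0.05 for all genes tested. Because the 9 genes and the other lists were chosen with earlier results of these data known, counts set beside all genes are a description. Irf3, Irf8 and Socs3 had overlapping groups.

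**Figure D1:**
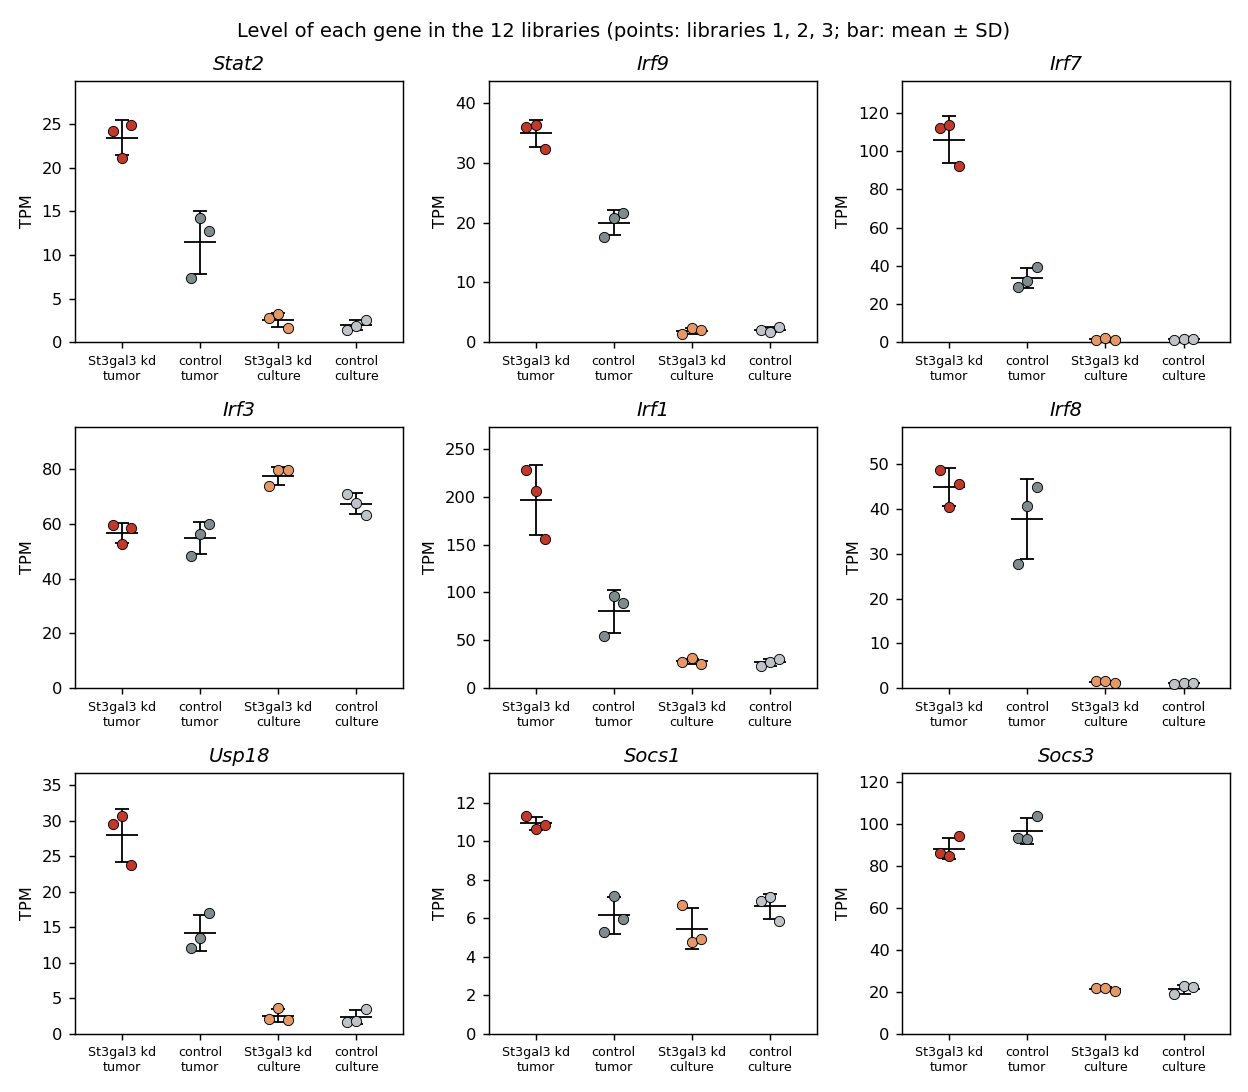
Transcript level in TPM (vertical axes, from 0) of each of the 9 genes in knockdown tumors, control tumors, knockdown cultures and control cultures; points are libraries, and the bars give the mean ± SD of 3 libraries. The tumor groups are apart for Stat2, Irf9, Irf7, Irf1, Usp18 and Socs1, and Irf7 reached 113.96 TPM in a knockdown tumor while no culture library exceeded 2.09 TPM.

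Stat2 and Irf9 encode the partners of the type I interferon complex. Irf9 was at 36.05, 36.46 and 32.39 TPM in knockdown tumors, against 17.61, 20.78 and 21.70 TPM in control tumors. It rose by 0.78 on the log2 scale (SE 0.0988, limma adjusted p = 0.0167), and its groups were separated by more than the range within either. The call was lost without control tumor 2 (adjusted p = 0.0540), knockdown tumor 1 (0.0811) or knockdown tumor 2 (0.0749), with log2 changes from 0.69 to 0.84 over the 6 omissions. Stat2 was at 24.27, 21.16 and 24.97 TPM in knockdown tumors, against 7.38, 14.21 and 12.79 TPM in control tumors. Its log2 change was larger than that of Irf9, at 1.02 (SE 0.224), yet its limma adjusted p was 0.0893. Control tumor 1 was far lower than the other two controls for Stat2, and without it the log2 change was 0.75 with an adjusted p of 0.0314. Irf9 transcripts outnumbered Stat2 transcripts in tumors, at 1.30 to 1.72 per Stat2 transcript in knockdown tumors and 1.46 to 2.39 in control tumors, and these ranges overlapped.

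Irf7, the inducible amplifier, had the smallest p of the 9 genes and ranked 10th among all 14915 genes. It was at 112.40, 113.96 and 92.02 TPM in knockdown tumors, against 29.00, 32.11 and 39.50 TPM in control tumors. Every knockdown tumor lay far above every control tumor. The log2 change was 1.64 (SE 0.132, limma adjusted p = 0.00595), and the call held in each of the 6 omissions of 1 tumor, with changes from 1.54 to 1.76. Irf3, the factor that is present before induction, was at 59.49, 52.55 and 58.40 TPM in knockdown tumors, against 48.37, 56.24 and 59.99 TPM in control tumors. Its groups overlapped, and the 95% interval of its log2 change ran from -0.17 to 0.28 (limma adjusted p = 0.784). The ratio of Irf7 to Irf3 was 1.89, 2.17 and 1.58 in knockdown tumors, against 0.600, 0.571 and 0.658 in control tumors. Irf7 exceeded Irf3 in all 3 knockdown tumors and in 0 of the 3 control tumors.

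Irf1, a target and mediator of interferon gamma, was the most abundant of the 9 transcripts in knockdown tumors. It was at 227.60, 206.42 and 155.58 TPM in knockdown tumors, against 54.59, 96.43 and 88.87 TPM in control tumors. The groups did not overlap, but both were wide. The log2 change of 1.31 (SE 0.257) had a limma adjusted p of 0.0855, and no omission of 1 tumor brought it under 0.05. Irf8, the myeloid and lymphoid lineage factor, was at 48.66, 40.46 and 45.71 TPM in knockdown tumors, against 27.66, 40.66 and 44.97 TPM in control tumors. Control tumors 2 and 3 lay within the span of the knockdown tumors, and control tumor 1 lay below it. The log2 change of Irf8 was 0.27, with a 95% interval from -0.16 to 0.70 (limma adjusted p = 0.457).

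Among the inhibitors, Usp18 and Socs1 rose and Socs3 did not. Usp18, the ISG15 protease, was at 29.47, 30.64 and 23.73 TPM in knockdown tumors, against 12.08, 13.53 and 16.98 TPM in control tumors. Its log2 change was 0.93 (SE 0.146, limma adjusted p = 0.0330). Socs1, the inhibitor of interferon-driven JAK signaling, was at 11.31, 10.63 and 10.87 TPM in knockdown tumors, against 5.29, 7.17 and 5.98 TPM in control tumors. The knockdown tumors lay close together and above all controls, and the log2 change was 0.75 (SE 0.117, limma adjusted p = 0.0329). Both calls sat near the threshold. That of Usp18 was lost without control tumor 1 (adjusted p = 0.0567), control tumor 2 (0.0999), knockdown tumor 1 (0.135) or knockdown tumor 2 (0.130). That of Socs1 was lost without control tumor 1 (0.0509) or 3 (0.105), or without knockdown tumor 1 (0.140), 2 (0.116) or 3 (0.0645). Socs3, the inhibitor of gp130 receptors, was at 85.82, 84.79 and 93.94 TPM in knockdown tumors, against 93.33, 92.51 and 103.60 TPM in control tumors. The groups overlapped, and the 95% interval of the log2 change ran from -0.30 to 0.04 (limma adjusted p = 0.389). There were 8.07 ± 0.533 Socs3 transcripts per Socs1 transcript in knockdown tumors and 16.0 ± 2.65 in control tumors, with no overlap.

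**Figure D2:**
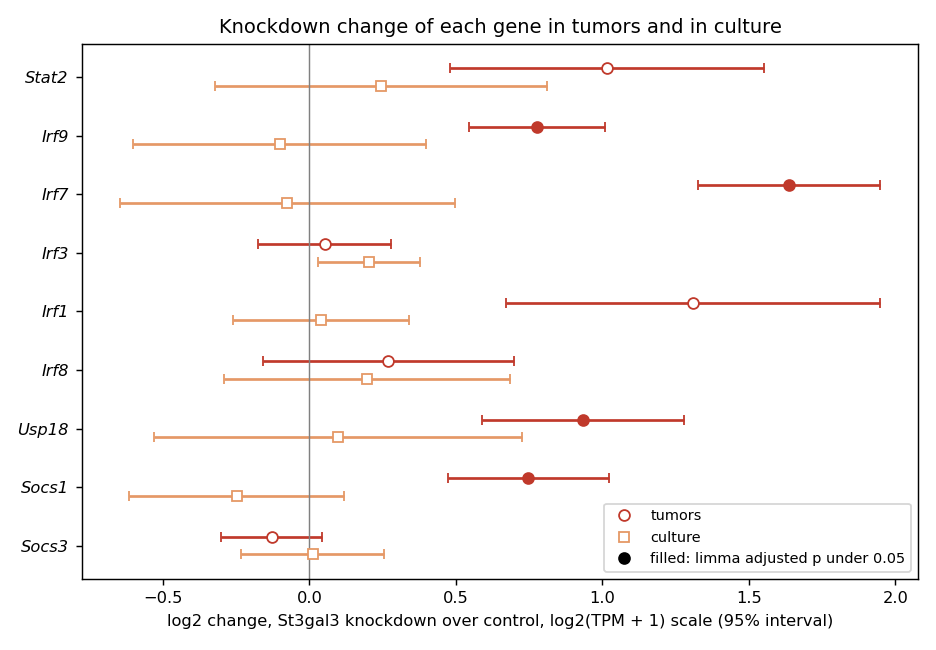
Log2 change of each gene (knockdown over control, log2(TPM + 1) scale, horizontal axis) in tumors and in culture, with 95% intervals from limma; filled symbols mark an adjusted p under 0.05. The filled tumor symbols run from 0.75 for Socs1 to 1.64 for Irf7, and no culture symbol is filled.

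In culture, where HM1 cells grow without a host, 0 of the 9 genes were called by limma, as were 0.0296% of 13492 genes tested, and 1 of the 9 had an unadjusted p under 0.05, as did 3.42% of all. That gene was Irf3, at 73.88, 79.68 and 79.65 TPM in knockdown cells, against 71.09, 67.67 and 63.49 TPM in control cells. These groups did not overlap, as for 5.25% of all genes with knockdown above, and the log2 change was 0.20 (SE 0.0744, unadjusted p = 0.0282). The limma adjusted p was 1.00 for each of the 9 genes. Irf7 was at 1.03, 2.09 and 1.15 TPM in knockdown cells, against 1.15, 1.66 and 1.76 TPM in control cells. At these low levels the interval of its log2 change ran from -0.65 to 0.50. Socs1 was at 6.67, 4.75 and 4.93 TPM in knockdown cells, against 6.88, 7.10 and 5.87 TPM in control cells, a log2 change of -0.25 with an interval from -0.62 to 0.12. Irf1 averaged 27.7 ± 2.98 TPM in knockdown cells and 27.0 ± 3.65 TPM in control cells, and Socs3 averaged 21.3 ± 0.911 and 21.2 ± 2.11 TPM in the same groups. Stat2, Irf8, Irf9 and Usp18 lay between 0.99 and 3.58 TPM in every culture library.

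The difference between the tumor and the culture change was tested on all 12 libraries. Of the 9 genes, 2 had a larger change in tumors, beside 0.572% of 15381 genes tested, and 6 had an unadjusted p under 0.05, beside 11.1% of all. For Irf7 the difference was 1.71 on the log2 scale (SE 0.250, limma adjusted p = 0.0113), and this call held in all 12 omissions of 1 library. For Socs1 it was 1.00 (SE 0.192, limma adjusted p = 0.0404), and this call held in 2 of 12 omissions, those of knockdown culture 1 and control tumor 2. Irf1 and Irf9 had differences of 1.27 and 0.88 that missed the threshold (limma adjusted p = 0.0915 and 0.105), as did Usp18 and Stat2, at 0.83 and 0.77 (0.331 and 0.420). The tables of the tissues may have been normalized separately, and each change was taken within its tissue.

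Levels set across the tissues are a description. In bulk samples, fewer cells of a type and less RNA per cell cannot be told apart. Control tumors held 35.1 times the Irf8 level of control cultures, 22.0 times the Irf7 level, 9.63 times that of Irf9, 6.02 times that of Usp18 and 5.90 times that of Stat2. Socs3 and Irf1 were 4.55 and 2.96 times as high. For Irf3 the ratio was 0.814 and for Socs1 0.929. Irf3 was the most abundant of the 9 genes in cultured cells, at 77.7 ± 3.34 TPM in knockdown and 67.4 ± 3.81 TPM in control cells, followed by Irf1, Socs3 and Socs1 with no overlap between neighbors in this order, and the 5 others overlapped. In control tumors the order by mean was Socs3, Irf1, Irf3, Irf8, Irf7, Irf9, Usp18, Stat2 and Socs1, where Socs3 overlapped Irf1, Irf1 overlapped Irf3, Irf8 overlapped Irf7 and Usp18 overlapped Stat2. In knockdown tumors it was Irf1, Irf7, Socs3, Irf3, Irf8, Irf9, Usp18, Stat2 and Socs1, where Irf7 overlapped Socs3 and Usp18 overlapped Stat2.

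The 5 IRF genes summed to 439 ± 50.9 TPM in knockdown tumors and 226 ± 42.6 TPM in control tumors (SD, n = 3 each). None of the 5 shares overlapped between the tumor groups. Irf7 made up 23.2% to 25.3% of the sum in knockdown tumors and 13.0% to 16.4% in control tumors, and Irf1 made up 40.5% to 47.0% and 30.8% to 39.2% in the same groups. Irf3 made up 11.7% to 15.2% in knockdown tumors and 22.8% to 27.3% in control tumors, and Irf8 made up 8.99% to 11.9% and 15.6% to 17.6%. The share of Irf9 was near 8% to 9% in both, at 7.99% ± 0.503 in knockdown tumors and 8.96% ± 0.845 in control tumors. Its ranges did not overlap but nearly touched, at 7.45% to 8.433% in knockdown tumors and 8.440% to 9.94% in control tumors. In culture the 5 genes summed to 104.84, 116.67 and 109.03 TPM in knockdown cells, against 98.61, 99.35 and 99.44 TPM in control cells, also without overlap, and Irf3 made up 63.8% to 73.1% of the sum in all 6 libraries. The sum, these 5 shares, and the ratios of Irf7 to Irf3, Irf9 to Stat2, Socs3 to Socs1 and Usp18 to Stat2 made 20 comparisons over both tissues. The 9 measures without overlap, 8 in tumors and the sum in culture, each had an exact two-sided permutation p of 0.1, the smallest that 3 against 3 allows, and an adjusted p of 0.222 over the 20. Shares of 1 sum are tied to each other, so a larger share of Irf7 and Irf1 means smaller shares for the rest.

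**Figure D3:**
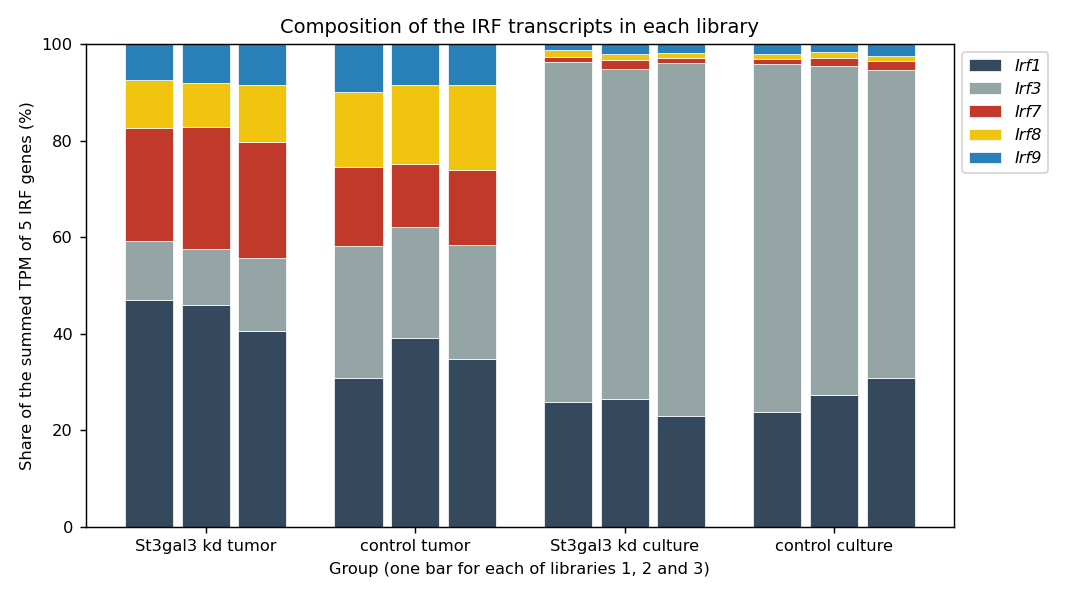
Stacked bars of the 5 IRF genes as percent of their summed TPM in each of the 12 libraries, with knockdown beside control in tumors and in culture. Irf3 fills 63.8% to 73.1% of the culture bars, and the Irf7 segment is taller in knockdown tumors than in control tumors.

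Genes that act before or beside the 9 members showed few calls in tumors. Of 10 tested ligands, receptors and JAK kinases of the interferon pathway, 0 were called by limma, 2 had an unadjusted p under 0.05, and the median log2 change was -0.04, beside 1.51% called among all genes and a median of -0.05. Ifnar1 and Ifnar2, the chains of the type I receptor, averaged 27.6 ± 1.84 and 39.3 ± 1.71 TPM in knockdown tumors, against 28.2 ± 1.57 and 40.5 ± 2.25 TPM in control tumors; they were picked for their role after their values were known. Ifng, which encodes interferon gamma, was at 2.61, 2.33 and 1.53 TPM in knockdown tumors, against 0.33, 0.91 and 0.47 TPM in control tumors (log2 change 1.01, SE 0.218, limma adjusted p = 0.0799). It was listed at 0 in all 6 culture libraries. Ifnlr1, which encodes a chain of the interferon lambda receptor, lay the other way, at 0.75, 0.94 and 0.82 TPM in knockdown tumors, against 1.6, 1.94 and 2.39 TPM in control tumors (log2 change -0.69, SE 0.165, limma adjusted p = 0.0957). Knockdown lay above control without overlap for Ifng and below it for Ifnlr1. Ifnb1, which encodes interferon beta, was at 0, 0.08 and 0.18 TPM in knockdown tumors and was listed at 0 in the 3 control tumors, too low to be tested. Of 17 sensors and kinases upstream of IRF3 and IRF7, 5 had an unadjusted p under 0.05, beside 18.7% of all genes tested. In 6 of the 17, every knockdown tumor lay above every control tumor, beside 9.81% of all genes tested. Only 1 gene of this list rose by limma. It was Dhx58, which encodes the RNA sensor LGP2, at 14.9 ± 2.64 TPM in knockdown tumors and 5.46 ± 0.687 TPM in control tumors (log2 change 1.29, limma adjusted p = 0.0130). The sensor genes Ifih1 and Ddx58 had log2 changes of 0.70 and 0.46 that missed the threshold (limma adjusted p = 0.0628 and 0.0765).

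Relatives of the members had 0 calls by limma in tumors. Among 6 other STAT genes, 1 had an unadjusted p under 0.05 and groups without overlap, and log2 changes ran from -0.21 to 1.84 around a median of 0.03. Stat5a, Stat4 and Stat6 had log2 changes of -0.21, 0.28 and -0.17. Of 6 other IRF genes and IRF2-binding proteins, 0 were called and 1 had an unadjusted p under 0.05. That was Irf5, at 28.0 ± 4.16 TPM in knockdown tumors and 21.6 ± 2.23 TPM in control tumors (limma adjusted p = 0.214). Of 14 other inhibitors of JAK and STAT signaling, 0 were called and 2 had an unadjusted p under 0.05, the phosphatase genes Ptpn1 and Ptpn6. In 5 of the 14, every knockdown tumor lay above every control tumor, beside 9.81% of all genes tested. Ptpn1 averaged 94.2 ± 9.97 TPM in knockdown tumors and 73.1 ± 6.72 TPM in control tumors, and Ptpn6 averaged 51.8 ± 4.73 and 39.8 ± 6.10 TPM in the same groups. Of 12 ligands and targets of gp130 and STAT3, the branch that SOCS3 restrains, 0 were called, 1 had an unadjusted p under 0.05, and the median log2 change was 0.00.

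Most of the type I interferon targets rose in knockdown tumors. The median log2 change of the 18 in the list was 1.47, beside -0.05 for all genes tested. Of the 18, 14 rose and 0 fell, beside 1.07% and 0.436% of all genes tested. Without knockdown tumor 1 the count was 9, and it was 11 to 15 over the other omissions. Ifit3 and Ifit1, whose proteins bind viral RNA, rose by 1.68 and 1.55 on the log2 scale, Oas3 by 1.27 and Ifi44 by 1.77. Of 17 interferon gamma targets, 3 rose and 0 fell, although their median log2 change was larger, at 2.04. In 16 of the 17, every knockdown tumor lay above every control tumor, beside 9.81% of all genes tested. The summed level of the 17 targets was 2054, 1979 and 1468 TPM in knockdown tumors, against 207, 546 and 560 TPM in control tumors. Control tumor 1 stood far below the other controls. Without control tumor 1 the median was 1.76 and 15 of the 17 rose by limma. Without control tumor 2, knockdown tumor 1 or knockdown tumor 2, the same count was 1, 1 and 0. The 3 called with all tumors were the chemokine gene Cxcl10 at 2.22, Cd274, which encodes PD-L1, at 1.26, and the guanylate-binding protein gene Gbp7 at 2.04. In the ISG15 pathway, which USP18 reverses, all 5 genes tested rose. Leaving out control tumor 2 or knockdown tumor 2 left 2 of these calls, and leaving out knockdown tumor 1 left 1. Isg15 averaged 120 ± 18.8 TPM in knockdown tumors and 41.4 ± 3.51 TPM in control tumors, and the enzymes Ube2l6 and Uba7 and the ligase Herc6 had log2 changes of 1.19, 1.00 and 1.12. In culture limma called 0 genes of each of these lists and of the lists of relatives and upstream genes, and 0 had an unadjusted p under 0.05, with 4 of the 18 type I targets and 7 of the 17 gamma targets expressed enough to be tested. The type I target list shares Isg15 with the ISG15 list, which also holds the member Usp18. Which interferon acted in the tumors was not tested, and the names of the lists do not tell.

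**Figure D4:**
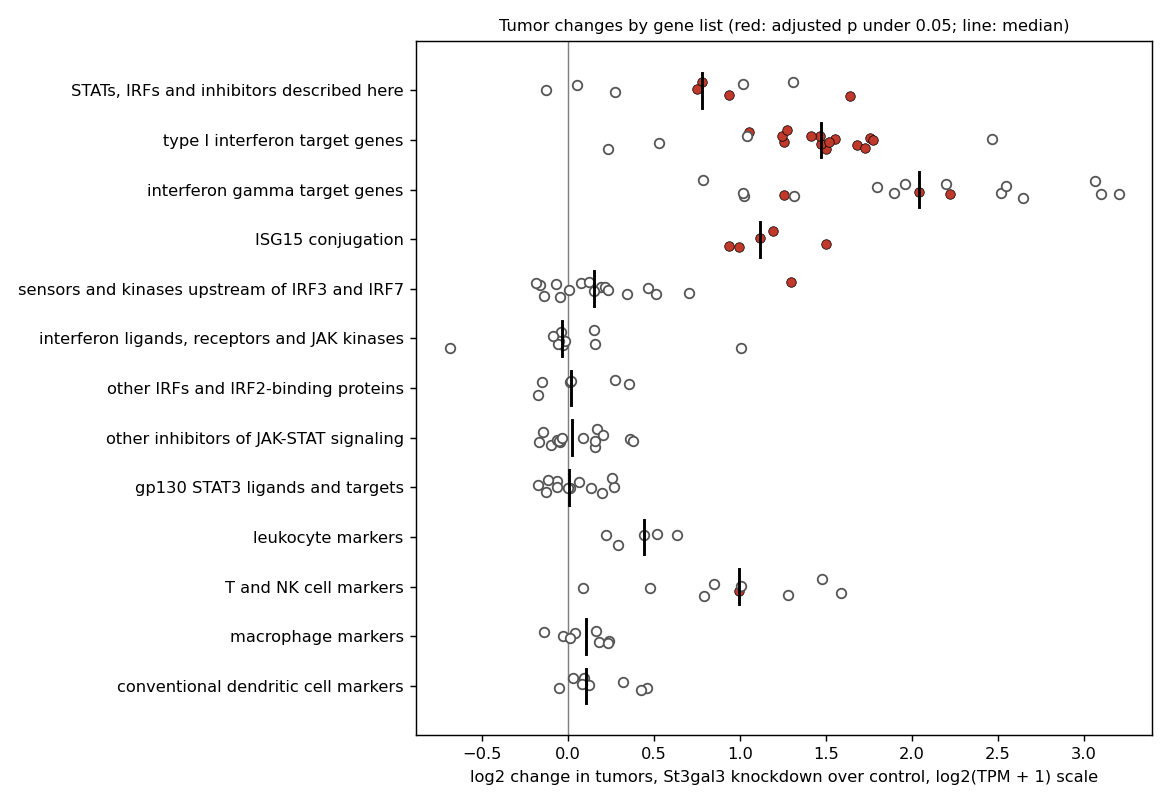
Log2 change in tumors (knockdown over control, log2(TPM + 1) scale, horizontal axis) of every tested gene in the 9 members and in part of the lists around them. Filled points have a limma adjusted p under 0.05 and the bars mark medians. Not shown are other STATs, plasmacytoid dendritic and B cell markers, skeletal muscle (median 1.30), and endothelial (-0.46), fibroblast (-0.31) and epithelial tumor (-0.29) markers. Medians sit at 1.47 for type I targets and 2.04 for interferon gamma targets, and near 0 for ligands and receptors, other IRFs and other inhibitors.

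Summed marker levels of T and NK cells and of leukocytes lay apart between the tumor groups, with knockdown above. The skeletal muscle sum, given below, lay apart in the same direction. That list was higher still in culture, at 569 to 644 TPM in knockdown and 598 to 679 TPM in control cells. Sums of the other host cell lists overlapped, those of endothelial and fibroblast markers only narrowly. The summed level of 9 T and NK cell markers was 61.9 to 68.0 TPM in knockdown tumors and 16.1 to 36.2 TPM in control tumors. Of the 9, 1 was called higher, Klrd1, beside 1.07% of all genes tested. An unadjusted p under 0.05 was found for 8 of them and for 18.7% of all genes. The sum of 5 leukocyte markers was 558 to 643 TPM in knockdown tumors and 379 to 492 TPM in control tumors, with 0 of 5 called by limma and 3 with an unadjusted p under 0.05. The sum of 8 macrophage markers was 1325 to 1697 TPM in knockdown tumors and 1289 to 1792 TPM in control tumors, and that of 8 conventional dendritic cell markers was 80.5 to 105 and 67.5 to 100 TPM. In both lists 0 genes were called by limma and 0 had an unadjusted p under 0.05. No marker of these 4 lists was at 0 in any tumor. The 6 B cell markers summed to 2.79 to 6.13 TPM in knockdown tumors and 2.06 to 4.28 TPM in control tumors. For 6 plasmacytoid dendritic cell markers the sum was 15.4 to 23.7 and 16.0 to 20.7 TPM in the same groups. Most of it was Tcf4, at means of 14.8 and 15.4 TPM. In culture, without a host, these 6 summed to 8.33 to 10.1 TPM in knockdown and 7.62 to 10.3 TPM in control cells. Their tumor sum is therefore not a measure of those dendritic cells alone. Only 2 genes of either list were high enough to be tested in tumors, and 0 had an unadjusted p under 0.05. The 5 endothelial markers summed to 33.2 to 48.9 TPM in knockdown tumors and 48.5 to 70.4 TPM in control tumors, with a median log2 change of -0.46. The 6 fibroblast markers summed to 706 to 1094 TPM in knockdown tumors and 1083 to 1469 TPM in control tumors, with a median log2 change of -0.31. In each of these 2 lists 0 genes were called by limma and 3 had an unadjusted p under 0.05. The collagen gene Col3a1, in the fibroblast list, had a log2 change of -0.79. Epithelial markers of the tumor cells summed to 2565 to 2831 TPM in knockdown tumors and 3231 to 3437 TPM in control tumors, with 0 of 6 called and 4 with an unadjusted p under 0.05. The part of these shifts in cell markers in the changes of the 9 genes was not tested. The T and NK cell sum was at most 0.05 TPM in culture.

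With knockdown tumors 1 and 3, the tumors richer in skeletal muscle transcripts, left out, knockdown tumor 2 alone stood for its group and was assumed to vary like the control tumors, and 1 of the 9 genes was called higher. That was Irf7, with a log2 change of 1.75 (limma adjusted p = 0.0490). Irf9, Socs1 and Usp18 had changes of 0.84, 0.71 and 1.07 without them (limma adjusted p = 0.182, 0.282 and 0.195), close to those with all tumors. Without them the difference between tissues was 1.82 for Irf7 (limma adjusted p = 0.0450) and 0.96 for Socs1 (0.202). With the muscle genes taken out of the TPM sum instead, 4 of the 9 were called in tumors. Those muscle genes summed to only 284 to 390 TPM in knockdown tumors and 227 to 278 TPM in control tumors. Taking out so small a share could barely move the other genes, so this count does not test the effect of muscle tissue.

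The same tumors were often at the ends of the ranges. Control tumor 1 was the lowest control for 8 of the 9 genes, all but Socs3, and for 49.4% of all genes. Among knockdown tumors, tumor 3 was the lowest for Irf1, Irf7, Irf9 and Usp18, and for 21.0% of all genes, while tumor 2 was the lowest for the 5 others and for 44.9% of all genes. Irf7, Irf9 and Usp18 shared both their highest knockdown tumor, tumor 2, and their lowest, tumor 3. Stat2 had its highest value in knockdown tumor 3, where Irf1 and Irf7 were lowest.

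The genes whose pattern over the 12 libraries lay nearest to each member were found by the root mean square difference of log2(TPM + 1) after subtracting the control mean of the same tissue, among 12319 genes. For Irf7 they were Isg15 and Ifi44, at 0.154 and 0.170. For Irf9 they were H2-T23 and Trafd1, at 0.0931 and 0.110, and for Stat2 they were Parp9 and Nlrc5, at 0.147 and 0.181. Irf1 had Ube2l6 and Parp14 at 0.113 and 0.130, Usp18 had Sp140 and Ifi204 at 0.106 and 0.129, and Socs1 had Samhd1 and Hk3 at 0.164 and 0.168. The smallest differences were those of Socs3 from Srp68 and Rhbdf1, at 0.0300 and 0.0345. Irf3 had Dcaf15 and Ccdc32 at 0.0629 and 0.0639, and Irf8 had Ddhd1 and Apobec3 at 0.0786 and 0.0990. Socs3, Irf3 and Irf8, whose tumor groups overlapped, were themselves nearest to a flat pattern, at 0.102, 0.135 and 0.239 by the same measure, beside 0.416 to 0.842 for the other 6 members. All of these patterns come from the same 12 libraries, so likeness is a description.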

How the data were processed

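RNA sequencing was done on 12 HM1 libraries, 3 in each of 4 groups taken from the sample titles. The authors deposited 1 table of TPM per sample, with gene identifier, name and length, per the file headers; fastp, HISAT, RSEM and build GRCm39 are named, per the submitters' processing notes. Tumor and culture tables list different gene sets and may have been normalized separately. Depth is not given in TPM, so no counting error could be set. The planned count test could not be used, and limma 3.58.1 (R 4.3.3) was run on log2(TPM + 1), with trended and robust variance moderation. Genes entered a test if any group averaged 1 TPM or more. Fold changes on this scale understate the change of low genes. Tests were two-sided, p-values were adjusted by Benjamini and Hochberg over all genes tested, and calls were made under 0.05. Tumors and cultures were modelled separately, on 6 libraries each, and all 12 entered the test of the difference between them. The members and the other gene lists were chosen with earlier results of these data known. Named genes were the members, St3gal3, up to 4 genes of a list by smallest tumor p, and the 2 genes of nearest pattern for each member; genes added for their role or level are the receptor chains, Ifnb1, Uba7, Acta1, Epcam, Cdh1 and Wt1. One further gene of the STAT list that the rule names is not reported here. Alternatives were another pseudocount, other filters, median-of-ratios scaling, a replicate block, 1 fit of all groups, the omission of each library, and the omission of muscle-rich tumors or of muscle genes. Promoters came from RefSeq through Python 3.11.15, and figures were drawn with matplotlib 3.10.9.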

Additional observations from a re-analysis of the deposited data

Results flagged for a closer look

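For 3 genes the knockdown change in tumors differed from that in culture in limma's test of the difference on all 12 libraries. The tumor change of Irf7 was larger by 1.71 on the log2(TPM + 1) scale, with changes of 1.64 in tumors and -0.08 in culture (adjusted p = 0.0113). That of Socs1 was larger by 1.00, with changes of 0.75 in tumors and -0.25 in culture (adjusted p = 0.0404). For St3gal3, the target of the hairpin, the difference was 1.19, since its level fell by 1.13 in tumors and by 2.32 in culture (adjusted p = 0.0164).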

How the results depend on the processing

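Of the 4 members called in tumors, 1 was called without a filter on low values, 0 with the replicate block and 1 without knockdown tumors 1 and 3. Omitting 1 tumor left 1 to 3. Irf7 was called in 13 of 14 alternatives in tumors, all but the block (adjusted p = 0.0713), Irf9 in 8, Usp18 in 7 and Socs1 in 6. Over the alternatives the adjusted p ran from 0.0314 to 0.390 for Stat2 and from 0.00589 to 0.305 for Irf1. Both were called in 1 fit of all 4 groups (0.0369 and 0.00589). All genes called in tumors numbered 225, against 82 with no filter, 2 with the block, 599 in 1 fit, 72 without knockdown tumors 1 and 3, and 38 to 229 over omissions. In culture, 0 members were called under any of 12 alternatives. All genes called there numbered 4, against 11 with a pseudocount of 0.1, 8 with the stricter filter, 8 in 1 fit, and 7 to 15 over omissions. For the difference between tissues, 2 members were called, against 0 with a pseudocount of 0.1, 1 with no filter, 0 with the block, 1 without knockdown tumors 1 and 3, 3 with median-of-ratios scaling and 1 to 2 over omissions. All genes called for it numbered 116, against 26 with a pseudocount of 0.1, 182 with median-of-ratios scaling, 0 with the block and 67 to 164 over omissions. St3gal3 in tumors stayed at -1.13 with the block (adjusted p = 0.0768), was -1.21 without knockdown tumors 1 and 3 (0.0531), and ran from -1.22 to -1.08 over omissions. Its difference between tissues was 1.19 with the block (0.151), 1.11 without those tumors (0.0980) and 1.10 to 1.31 over omissions. Of changes that were called in no setting, some reversed. Irf3 in tumors, at 0.05, was -0.0555 without knockdown tumors 1 and 3 and -0.0334 to 0.119 over omissions. Irf8 in the difference, at 0.07, was -0.0520 with a pseudocount of 0.1, -0.0715 without those tumors, and -0.131 to 0.210 over omissions. In culture, Socs3 was -0.0200 with median-of-ratios scaling, and omissions gave -0.0687 to 0.0625 for Socs3, -0.0584 to 0.131 for Irf1, -0.264 to 0.0392 for Irf7, -0.220 to 0.0585 for Irf9 and -0.0946 to 0.335 for Usp18. The cause of these shifts was not tested. Deviations of same-numbered samples from their group means had correlations of -0.14, -0.02 and 0.05 in tumors and -0.06, -0.07 and -0.16 in culture. For samples of different number they ran from -0.14 to 0.15 in tumors and from -0.09 to 0.15 in culture. With 3 samples per group, these correlations cannot decide whether the numbers pair the samples. The unknown depth limits the members under 3 TPM in culture most.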
